A study of Caenorhabditis elegans with 12 samples.

Results

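Loss of the germline at day 6 of adulthood (D6) was examined in whole Caenorhabditis elegans by comparing 3 RNA-seq libraries of glp-1(e2141) animals with 3 libraries of wild-type N2 animals. The genes described are those with at least 1 FPKM in at least 3 of these 6 libraries, 12598 of the 20257 genes listed. Just inside this level lay lgc-38, a ligand-gated channel gene, with the third highest of its 6 values at 1.0002 FPKM, and just outside it lay fbxc-12, an F-box gene, at 0.9997 FPKM. FPKM is a count of sequenced fragments divided by gene length and by library total, so that levels of different genes can be set side by side per unit length. The series holds 12 libraries, 3 each of N2 and glp-1(e2141) at day 1 (D1) and at D6. All animals of both genotypes grew from synchronized larvae on OP50 bacteria at 25 °C up to D1, so the controls had the same warm start. The D6 animals of both genotypes were then kept cooler, at 20 °C per the series' design text, while the D6 labels read 20, 21 and 22 °C for replicates 1, 2 and 3 of either genotype. The labels do not say whether replicates came from separate cultures, and the p-values therefore reflect spread among these libraries that can be technical.

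GLP-1 is a Notch receptor of germline stem cells. The e2141 allele is temperature-sensitive, and animals raised warm have few germ cells and lay no eggs, while their somatic gonad and the rest of the body form. Wild-type hermaphrodites of this age have used up most of their own sperm, but their gonads still hold mitotic germ cells, meiotic nuclei and oocytes rich in stored maternal RNA, and the uterus can hold eggs. Worms without germ cells are known for storing fat, for continued yolk production with no oocytes to take it up, and for long life. A whole-worm library measures shares of RNA: where a tissue rich in RNA is missing, every other tissue takes a larger share, and fewer cells of a type cannot be told apart from less RNA per cell.

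The glp-1 transcript itself stood at 97.5, 99.3 and 96.9 FPKM in wild-type replicates 1, 2 and 3 and at 6.15, 5.44 and 6.69 FPKM in the same order in the mutant. The mutant allele was not read from these values. Of 17 germ cell marker genes, all of them described, 17 were lower in the mutant, and their summed level was 10131 to 10736 FPKM in the wild type against 30.3 to 129 FPKM in glp-1. Somatic markers were present in every library. Summed over 20 body wall muscle genes the range was 1820 to 1987 FPKM in the wild type and 5025 to 5640 FPKM in glp-1, and over 14 intestinal genes it was 3666 to 4201 FPKM and 12261 to 13295 FPKM. Of 19 sperm markers 7 were described, of which 4 were higher and 2 lower (1 and 3 in the muscle and neuron scaling described below). Of 12 sheath and spermatheca markers 8 were higher and 3 lower (4 and 6 in that scaling). Depth, estimated only roughly, was 17.32 M to 20.18 M fragments a library (M, mega), and between 11308 and 11794 genes reached 1 FPKM in each D6 library.

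Nearly every gene differed between the genotypes. By limma on log2(FPKM + 1), with Benjamini-Hochberg adjustment over the 13614 genes tested in all 12 libraries and a call at adjusted p under 0.05, 89.8% of all genes tested were called, 44.4% of them higher and 45.4% lower in glp-1. Among the 12598 genes described, 11795 were called (93.6%), 5824 higher (46.2%) and 5971 lower (47.4%), and 803 were not. The genes were kept for reaching 1 FPKM in any 3 of these 6 libraries, so 1364 of them had a wild-type mean under 1 FPKM and 1219 a mutant mean under 1 FPKM. A gene that reached the level only through the genotype where it is high was bound to differ. For 11784 genes (93.5%) the 3 mutant values did not overlap the 3 wild-type values. Differences below are log2(FPKM + 1) in glp-1 minus wild type, with the standard error (SE). The pseudocount of 1 understates the change of low genes.

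The falls were deeper than the rises. At least 2-fold differences were found for 4639 genes higher and 5036 lower, at least 4-fold for 1978 and 3227, and at least 16-fold for 46 and 858. Beyond 64-fold there were 0 genes higher and 167 lower. The median over the genes described was -0.06, against -0.03 over all genes tested. When every library was instead scaled to 33 muscle and neuron genes, the median moved to -1.53, with 2787 genes higher and 7637 lower, so that higher genes made up 26.7% of the calls in place of 49.4%. Equal summed FPKM gave a median of 0.06 and median-of-ratios scaling 0.25. A rise below is therefore a larger share of the sequenced RNA, and where the muscle and neuron scaling turns its direction this is said beside it.

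**Figure D1:**
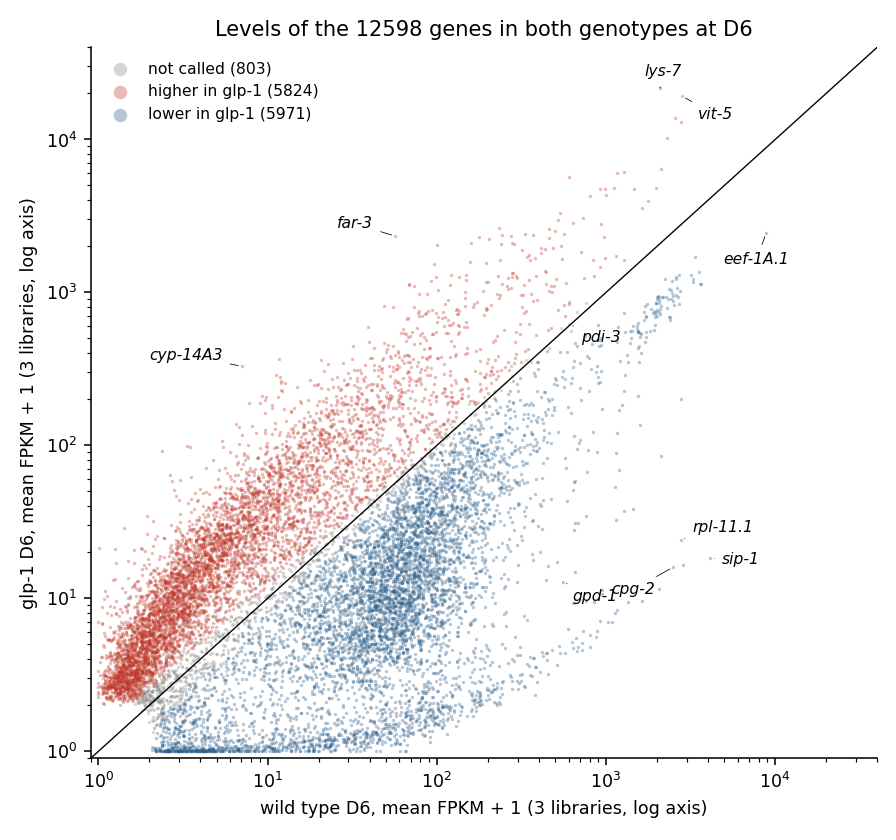
Mean FPKM + 1 of the 12598 genes in wild type at D6 (x axis) and in glp-1 at D6 (y axis), both on log axes, over 3 libraries each, with genes coloured by the limma call and the diagonal marking equal levels. The higher genes (5824) form a band above the diagonal, while the lower genes (5971) reach much farther from it, with sip-1 and cpg-2 among the lowest.

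The RNA pool of the 2 genotypes had different leading genes. Genes called higher made up 16.6%, 16.8% and 16.9% of the summed FPKM in wild-type replicates 1, 2 and 3 and 73.1%, 74.3% and 73.2% in the mutant. Genes called lower went from 81.1%, 80.8% and 80.7% to 24.2%, 23.1% and 24.1%. These shares describe the calls and are no test of them. Of the 100 most abundant genes of each genotype 23 were shared. The 20 most abundant genes held 7.46% to 7.93% of the summed FPKM in the wild type and 18.7% to 19.1% in glp-1.

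The chromosomes contributed very differently. In germ cells the X chromosome is largely silent, and autosomes carry most germline genes. The X chromosome held 5.44%, 5.68% and 5.69% of the summed FPKM in the wild-type libraries and 19.3%, 19.2% and 18.9% in the mutant libraries. The groups lay far apart, and leaving out the 5 vitellogenin genes that lie on X left 4.89% to 5.06% against 15.4% in each mutant library. Chromosome I went the other way, from a mean of 22.4% ± 0.022 (SD, n = 3) to 11.7% ± 0.134 (SD, n = 3). Chromosome III fell from 22.0% to 14.7% and chromosome II from 14.7% to 11.6%, while chromosome V went from 14.7% to 21.3% and chromosome IV from 19.3% to 20.7%. For each of the 6 chromosomes the exact permutation test, two-sided, gave p = 0.1, the smallest that 3 libraries against 3 allow.

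Counted by gene, the same order appeared. On X 72.5% of the 1809 genes described were higher and 19% lower (median 1.18), and on V 60.2% of 2440 were higher and 33.9% lower (median 0.99). On I 28.9% of 1988 were higher and 65.6% lower (median -1.29), and on III 31.9% of 2013 were higher and 62.1% lower (median -1.1). Chromosomes II (median -0.88) and IV (median -0.30) lay between. Falls of at least 16-fold made up 10.8% of the genes described on I and 1.99% of those on X. Under the muscle and neuron scaling the medians of V and X turned to -0.18 and -0.11, with 32.7% of the X genes higher and 42.8% lower, and X and V still ranked above the other chromosomes, whose medians ran from -2.88 to -1.71. Wild-type levels also differed by chromosome, with a median gene at 6.03 FPKM on X and 37.7 FPKM on I, against 11.1 and 9.58 FPKM in glp-1.

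**Figure D2:**
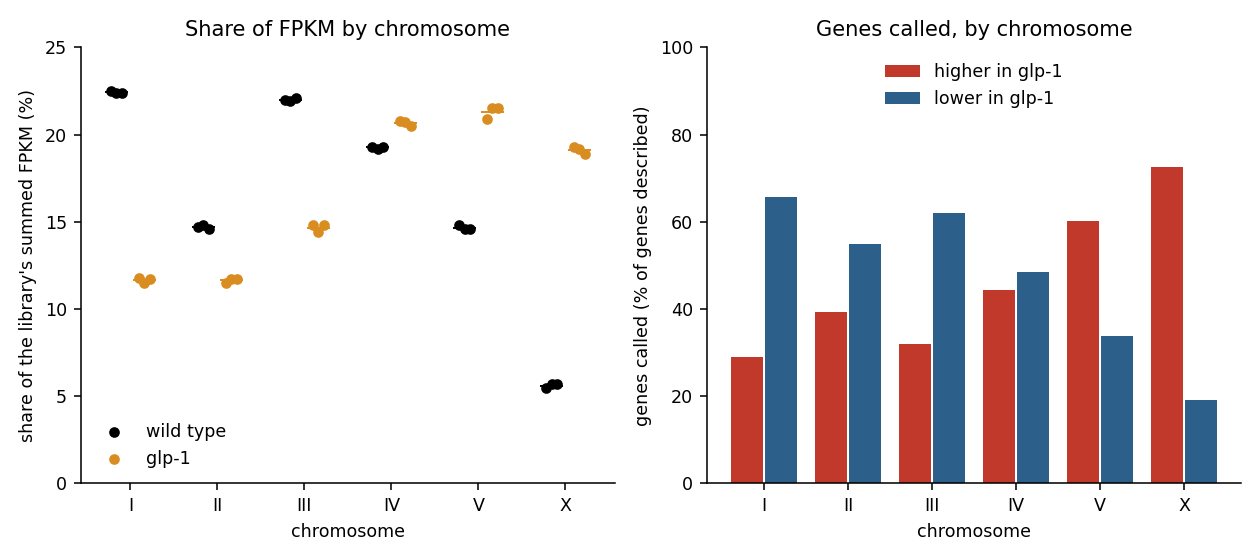
Left, the share of each library's summed FPKM (y axis, %) that came from each chromosome (x axis), with 1 point per library and a line at the mean of 3; right, the share of the genes described on each chromosome that were called higher or lower in glp-1 (y axis, %). The X chromosome rose from under 6% in the 3 wild-type libraries to about 19% in the 3 mutant libraries, and chromosome I went from 22.4% to 11.7%.

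Close neighbours moved together. Many worm genes are transcribed in operons, groups of genes on the same strand that share a promoter. Of 2577 pairs of adjacent genes on the same strand with at most 1000 bases between them, both called, 82.3% had the same direction, and 59.1% were both lower. Close pairs on opposite strands followed with 77.8% of 1526 pairs. Pairs more than 1000 bases apart shared a direction in 62.6% (same strand) and 62.2% (opposite strands) of cases, and all 10913 neighbouring pairs in 69.4%. Fragments near a gene's end can be counted for its neighbour, and the part of this in the shares was not tested. Overlapping genes shared a direction in 63.3% of 1277 pairs, and the sources used here do not give the strand setting of the counting.

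The largest rise was that of cyp-14A3, a cytochrome P450 of the detoxification family (chromosome X, 13271837 to 13274202, minus strand, build WBcel235). It had 6.68, 5.54 and 5.98 FPKM in wild-type replicates 1, 2 and 3 and 315, 339 and 331 FPKM in the mutant (5.54, SE 0.12, adjusted p = 2.07e-13 by limma). All mutant values lay far above the wild type. The gene far-3 (chromosome V, 12996787 to 12997522), for a secreted fatty acid and retinol binding protein, had 68.8, 36.0 and 63.0 FPKM against 2410, 2336 and 2250 FPKM (5.41, SE 0.18). The cuticle collagen gene col-183 (chromosome X, 13466643 to 13467764) had 1.85, 1.17 and 1.16 FPKM against 119.6, 84.8 and 68.2 FPKM (5.24, SE 0.22). The UDP-glucuronosyltransferase gene ugt-25, which belongs to a family that attaches sugar to lipophilic compounds, had 11.7, 10.5 and 9.51 FPKM against 357, 394 and 340 FPKM (4.98, SE 0.11).

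The other rises among the 15 largest had between 4.40 and 4.90. Several were further enzymes of small-molecule metabolism: cyp-35B1 (4.46), again a cytochrome P450, went from a mean of 11 to 262 FPKM, and dhs-20 (4.40), a short-chain dehydrogenase, from 8.74 to 205 FPKM. The ion pump gene catp-3 (4.41), of the P-type ATPases, had a mean of 11 ± 0.675 FPKM in the wild type and 255 ± 26.3 FPKM in the mutant (SD, n = 3). The gene sdz-24 (4.46) went from 2.68, 1.58 and 0.919 FPKM to 48.8, 56.1 and 66.8 FPKM. The remaining 7 carry only sequence names in the files: B0024.4 (4.90), F15B9.6 (4.82), D1086.3 (4.67), F56D6.9 (4.63), Y47H9C.1 (4.57), F54F7.2 (4.56) and ZK6.11 (4.49), whose current symbol is irg-8. B0024.4 spread most, with an SE of 0.53, from 57.8 to 127 FPKM in the mutant. All 15 kept a positive value under the muscle and neuron scaling.

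Measured in FPKM rather than folds, the lysozyme gene lys-7 and the yolk protein gene vit-5 gained most. The lysozyme gene lys-7 (chromosome V, 3481432 to 3482600), an antibacterial enzyme of the gut, had 2262, 1926 and 2059 FPKM in the wild type and 19296, 22645 and 23282 FPKM in glp-1 (3.38, SE 0.15), and alone held 2.49% to 2.90% of the mutant's summed FPKM. The yolk protein genes rose. For vit-5 (chromosome X, 3403471 to 3408603) the values were 2667, 2656 and 3120 FPKM against 19976, 19229 and 18399 FPKM (2.77, SE 0.08), and vit-6 and vit-2 rose by 2.43 and 2.17. The 6 vitellogenin genes together held 0.854%, 0.938% and 1.03% of the wild-type pool and 6.58%, 6.27% and 5.72% of the mutant pool, and all 6 rose. The near-identical copies vit-3, vit-4 and vit-5 are uncertain one by one.

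Fat carriers and a desaturase were also among the 10 largest gains. The lipid-binding genes far-2 and far-1 rose by 2.22 and 2.37, far-2 from a mean of 2779 ± 77.2 to 12935 ± 629 FPKM (SD, n = 3). The delta-12 desaturase gene fat-2 went from 1164 to 6041 FPKM (2.37, SE 0.08), and spp-5, for a saposin-like antibacterial protein, from 1269 to 6101 FPKM (2.27, SE 0.09). C17F4.7, a gene with no symbol in the files, had 819, 507 and 496 FPKM against 4438, 6215 and 6462 FPKM (3.25, SE 0.22). Another gain was that of perm-4, an eggshell protein gene, with 1978, 2122 and 2226 FPKM in the wild type and 6453, 6024 and 6838 FPKM in glp-1 (1.61, SE 0.07), but the muscle and neuron scaling gave -0.08 (adjusted p = 0.395 by limma).

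The largest fall on the log2 scale was that of sip-1 (chromosome III, 10506106 to 10506801), a small heat shock protein gene of oocytes and embryos, which had 4104, 4069 and 4254 FPKM in the wild type and 32.6, 2.21 and 17.1 FPKM in glp-1 (-8.37, SE 0.70, adjusted p = 8.45e-07 by limma). Every mutant value lay far below the wild type, while the 3 mutant libraries also differed widely among themselves. The Y-box RNA-binding protein gene cey-2 of the germline had 2995, 2699 and 2880 FPKM against 25.5, 2.42 and 18.2 FPKM (-7.89, SE 0.60). Lectin gene clec-87 fell by 7.83 and the caveolin gene cav-1, of germ cell and egg membranes, fell by 7.77. The eggshell proteoglycan genes cpg-1, cpg-2 and cpg-3 fell by 7.69, 7.64 and 7.54, and cpg-2 had 2570, 2367 and 2547 FPKM against 25.8, 3.41 and 15.7 FPKM.

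The other large falls were of RNA-binding, chromatin and lectin genes. R09B3.2 (current symbol rbm-3.1) (-7.69), clec-266 (-7.46), T19H12.2 (-7.45) and cey-3 (-7.41) were among them. The linker histone variants hil-4 (-7.42) and hil-5 (-7.41) also fell, with hil-4 at 690, 651 and 710 FPKM against 6.51, 0.643 and 4.20 FPKM. The list ended with puf-5 (-7.41), a translational repressor gene of the Pumilio family, and pos-1 (-7.37), for a maternal zinc finger protein. In all 15 mutant replicate 2 was the lowest of the 3 mutant libraries.

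In FPKM the largest loss was that of the translation elongation factor gene eef-1A.1 (chromosome III, 6970026 to 6971712), the most abundant of the genes that fell, with 8764, 8644 and 9134 FPKM in the wild type and 2435, 2359 and 2537 FPKM in glp-1 (-1.86, SE 0.06). The ribosomal protein gene rpl-11.1 had 2962, 2580 and 2764 FPKM against 31.1, 11.6 and 26.9 FPKM (-6.95, SE 0.28), while the ribosomal protein genes rps-25 and rps-8 fell by 1.69 and 1.40. The gene vig-1, for a protein first found with the RNA-induced silencing complex, had a mean of 2765 FPKM in the wild type and fell by 3.78 (SE 0.06). Y82E9BR.3 and Y37E3.8 fell by 1.68 and 1.47.

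Germline machinery fell as a block. The lists below were chosen with earlier results of these data known, and their counts stand beside the 45.4% of all genes tested that were lower. Of 17 P granule genes, whose products form the RNA granules of germ cells, 17 fell (median -5.43), with the scaffold gene pgl-1 at 334, 309 and 331 FPKM against 2.50, 0.274 and 2.30 FPKM. The mutant mean was under 1 FPKM in 9 of these 17. The RNA helicase gene glh-2 fell by 6.44 and deps-1 by 6.61. Of 28 genes of meiotic chromosome structure 28 fell (median -5.08), and 25 of them had a mutant mean under 1 FPKM. The synaptonemal complex gene syp-4 had 126, 118 and 119.7 FPKM against 1.11, 0.0545 and 0.688 FPKM, and the axis genes htp-1 and him-3 fell by 6.19 and 6.07.

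Division genes fell alike. All 31 DNA replication genes fell (median -5.30), with the helicase subunit gene mcm-2 (-6.81) and the sliding clamp gene pcn-1 (-6.59), which kept 15, 4.49 and 9.79 FPKM in the mutant. All 34 genes of kinetochores, centrosomes and cytokinesis fell (median -5.22), among them csc-1 (-6.50) and icp-1 (-6.36) of the chromosomal passenger complex. All 5 cyclin A and B genes fell (median -6.47). Of the 27 listed RNA regulators of germ cells, oocytes and early embryos 26 reached the level to be described and 26 fell (median -6.68).

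Small RNA pathway genes mostly fell. All 20 described genes of germline small RNA pathways fell (median -3.64), led by the Argonaute genes hrde-1 (-6.90) and wago-1 (-6.89), and the piRNA Argonaute gene prg-1 went from 193, 200 and 198 FPKM to 4.10, 2.50 and 4.50 FPKM (-5.42, SE 0.14). Of 14 listed genes of microRNA, RNAi and other small RNA pathways 11 fell, 2 rose and 1 was not called (median -1.40). The dsRNA-binding gene rde-4 and the Argonaute gene ergo-1 fell by 4.46 and 4.38. The gene sid-2, which takes up double-stranded RNA from the gut lumen, rose from 11.6, 7.74 and 5.48 FPKM to 59.3, 68.7 and 63.3 FPKM (2.86, SE 0.20).

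Genes for handling RNA and making protein fell more shallowly. All 22 nucleoporin genes fell (median -3.42), with npp-22 (-5.11) and npp-9 (-4.35), all 14 Sm and LSm genes of the splicing particles fell (median -3.24), with snr-2 (-4.47), and all 13 SR protein and splicing helicase genes fell (median -3.0), with rsp-6 (-3.49). Of 23 genes of the nucleolus 22 fell (median -3.20), with fib-1, for the rRNA methyltransferase fibrillarin, at 788, 706 and 772 FPKM against 32.5, 27.8 and 40.3 FPKM. The exception was ncl-1, a repressor of nucleolar size, at 47.1 ± 3.66 and 53.0 ± 2.00 FPKM (0.17, SE 0.07, adjusted p = 0.0331 by limma). This call was lost without wild-type replicate 1 (0.11) and without mutant replicate 1 (0.14) or 2 (0.17), and the muscle and neuron scaling turned it to -1.49. All 24 genes of a list of Polycomb-like, heterochromatin and other chromatin factors fell (median -3.23). The germline histone methyltransferase gene mes-4 (-5.38) and lin-54 (-5.23) were among them.

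All 63 mitochondrial ribosomal protein genes fell (median -2.42, from -3.39 for mrpl-18 to -1.43). All 31 aminoacyl-tRNA synthetase genes fell (median -1.84), with the mitochondrial leucine enzyme gene lars-2 (-3.15) and the lysine enzyme gene kars-1 (-2.89). All 8 subunit genes of the cytosolic chaperonin fell (median -2.08), cct-8 with 262, 271 and 270 FPKM against 47.4, 47.5 and 46.9 FPKM (-2.48, SE 0.06). Within each of these lists the 3 mutant libraries held nearly the same level, 16.6%, 16.8% and 17.9% of the wild-type mean for the median mitochondrial ribosomal gene. For germ cell markers the same figures were 1.26%, 0.153% and 0.707%.

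**Figure D3:**
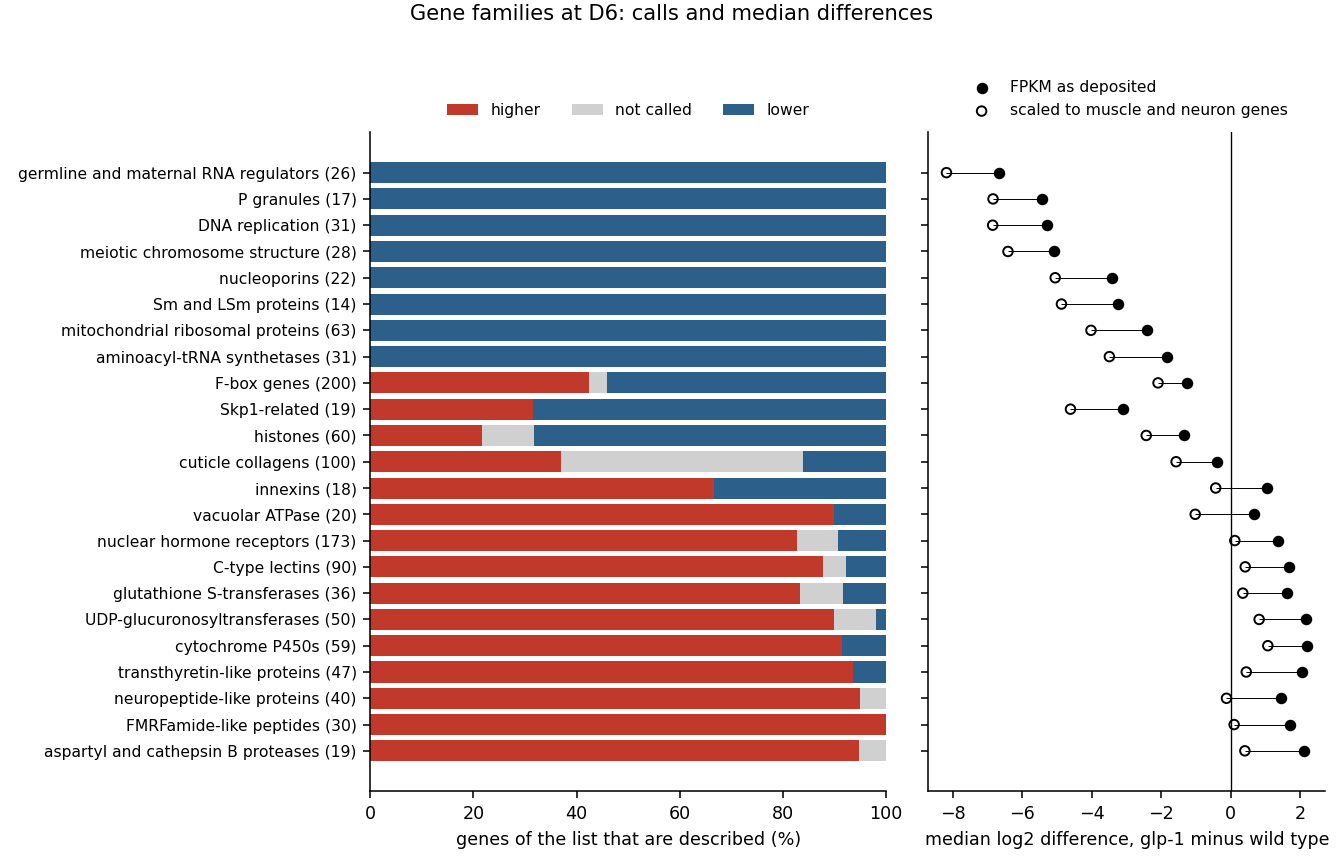
Left, the share of the described genes of 23 gene lists (number in brackets) that were called higher, lower or not called in glp-1 (x axis, %); right, the median log2 difference of each list, glp-1 minus wild type, with FPKM as deposited (filled) and scaled to muscle and neuron genes (open). Germline and gene expression lists lie wholly on the lower side under both scalings, and the medians of innexins, vacuolar ATPase and neuropeptide-like proteins turn below 0 in the second.

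Most described genes of the detoxification enzyme families rose. Of 59 described cytochrome P450 genes 54 rose and 5 fell (median 2.20, and 1.07 in the muscle and neuron scaling), beside 44.4% higher among all genes tested. The rises included cyp-25A1 (4.25) and cyp-29A2 (4.16). The deepest falls were those of cyp-31A2, at 96.6, 88.0 and 84.2 FPKM against 1.13, 0.333 and 0.711 FPKM, cyp-31A5 (-5.44) and cyp-31A3 (-5.26). The cyp-31A genes are near-identical copies, uncertain one by one, of which cyp-31A2 and cyp-31A3 act in forming the eggshell. Of 50 UDP-glucuronosyltransferase genes 45 rose, with ugt-63 (3.90) and ugt-62 (3.64), 4 were not called and 1, ugt-64, fell by 0.21 (adjusted p = 0.0182 by limma, turned to 0.15 by median-of-ratios scaling, and no longer called without wild-type replicate 1 or 2 or mutant replicate 3, at -0.18 to -0.19). Of 36 glutathione S-transferase genes 30 rose and 3 fell, with gst-6 (3.07) and gst-36 (2.80) above and gst-7 at 255 ± 22.5 against 121 ± 9.85 FPKM (-1.06, SE 0.08). In the muscle and neuron scaling 37 UDP-glucuronosyltransferase genes were higher and 6 lower (median 0.82, from 2.16). For glutathione S-transferase genes that scaling gave only 15 higher and 9 lower (median 0.35, from 1.62). The wild-type mean was under 1 FPKM for 16 P450, 10 UDP-glucuronosyltransferase and 8 glutathione S-transferase genes. For the mutant mean the same counts were 4, 0 and 0.

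Secreted and membrane lectins followed the same form. Of 90 described C-type lectin genes 79 rose and 7 fell (median 1.67, and 0.42 in the muscle and neuron scaling). In 18 of these 90 the wild-type mean was under 1 FPKM, and in 2 the mutant mean. The largest rises were those of clec-41, from 82.9, 61.4 and 73.8 FPKM to 1060, 1201 and 1064 FPKM (3.92, SE 0.22), and clec-258 (3.84). The falls of clec-87 and clec-266 given above were 2 of the 7, and clec-91 fell by 7.08. Of 47 transthyretin-like genes, which encode small secreted proteins, 44 rose and 3 fell (median 2.05). The gene ttr-48 rose by 3.22 and ttr-41 by 3.09, while ttr-50 went from 194, 218 and 219 FPKM to 2.94, 2.01 and 3.54 FPKM (-5.81, SE 0.14).

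Gut proteases and fat carriers rose. Of 19 genes for aspartyl and cathepsin B proteases of the gut lumen and lysosome 18 rose (median 2.10), with asp-17 from 11.2, 12.9 and 10.8 FPKM to 187, 307 and 268 FPKM (4.30, SE 0.21), asp-14 (3.57) and asp-4 (3.47). The 14 intestine markers had a median of 1.97, close to that of these proteases. Scaled to muscle and neurons, 9 of the proteases were higher and 3 lower (median 0.41). All 15 described astacin protease genes rose (median 1.36), among them nas-3 (4.02) and nas-20 (2.84), though 8 of them had a wild-type mean under 1 FPKM. Of 17 lipid-binding protein genes 14 rose and 2 fell (median 1.86), while scaled to muscle and neurons 8 were higher and 3 lower (median 0.53). The rises included lbp-6 (2.52). The falls were those of lbp-9 (chromosome V, 2068449 to 2069142), at 1214, 1038 and 1182 FPKM against 83.7, 77.5 and 102 FPKM (-3.70, SE 0.09), and lbp-4 (-2.31). Of 16 acyl-CoA synthetase genes, which activate fatty acids, 12 rose and 4 fell, acs-1 rising by 2.89 and acs-4 and acs-13 falling by 2.72 and 2.10. Of 11 peroxin genes, for building peroxisomes, 8 rose and 3 fell, with prx-2 (2.71) and prx-11 (2.55) up and prx-10 down (-1.70).

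Of 173 described nuclear hormone receptor genes 143 rose, 16 fell and 14 were not called (median 1.37). These are ligand-regulated transcription factors, a family much expanded in worms. Summed over all 271 listed genes the level was 1038 to 1123 FPKM in the wild type and 2122 to 2223 FPKM in glp-1. Among the rises were nhr-76 (2.83) and nhr-43 (2.80). The falls were led by nhr-2 of early embryos, at 25.2, 22.7 and 23.6 FPKM against 0.20, 0.00 and 0.355 FPKM, and by nhr-23, a regulator of molting (-3.64, SE 0.11). In the muscle and neuron scaling 54 were higher and 52 lower, with a median of 0.12. Of the 173 genes, 30 had a wild-type mean under 1 FPKM and 4 a mutant mean under 1 FPKM.

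Neuronal families rose by amounts close to that of the neuronal markers. All 30 described FMRFamide-like peptide genes rose (median 1.71), with flp-34 (2.79) and flp-28 (2.21), and 38 of 40 neuropeptide-like protein genes rose (median 1.45), with nlp-20 (2.36) and nlp-40 (2.24), which the intestine makes and which stood at 256, 217 and 248 FPKM against 1041, 1157 and 1207 FPKM. The 19 described neuronal markers had a median of 1.35, with 18 higher. Of 30 described nicotinic and ligand-gated channel genes 26 rose, with lgc-22 (2.86), and of 24 two-pore potassium channel genes 23 rose, with twk-34 (2.60). Of these, 20 channel genes and 14 two-pore genes had a wild-type mean under 1 FPKM. Scaled to muscle and neurons, the FMRFamide-like peptides had 7 higher and 4 lower (median 0.10) and the neuropeptide-like proteins 7 higher and 9 lower (median -0.12). Of 1296 listed chemoreceptor genes of the families searched 27 were described, of which 25 rose and 2 fell, and str-176 (2.42) and str-7 (2.75) were among the higher ones. In 19 of these 27 the wild-type mean was under 1 FPKM.

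Families of ubiquitin ligase adaptors went both ways, as did all genes tested, of which 44.4% were higher and 45.4% lower. Of 200 described F-box genes 85 rose and 108 fell (median -1.25), from fbxa-151 (3.45) to fbxa-215, at 264, 240 and 222 FPKM against 3.24, 0.554 and 1.69 FPKM (-6.54, SE 0.26). The group was wide: 105 of the 200 had a mutant mean under 1 FPKM and 44 a wild-type mean under 1 FPKM. Of 49 MATH and BATH genes 21 rose and 27 fell, with math-14 (3.06) and bath-28, at 32.2, 30.1 and 35.1 FPKM in the wild type and 0 in each mutant library. Among these 49 genes 19 had a mutant mean under 1 FPKM and 4 a wild-type mean under 1 FPKM. Of 19 Skp1-related genes, whose products join F-box proteins to the ligase core, 6 rose and 13 fell. The largest were skr-5 (3.07) and skr-4 (2.78) above, and skr-2 (-6.71) and skr-7 (-6.50) below.

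Gene copies with separate uses diverged in the same animals. Of 4 genes for the glycolytic enzyme glyceraldehyde-3-phosphate dehydrogenase, gpd-1 had 580, 529 and 557 FPKM in the wild type and 16.1, 7.62 and 11.6 FPKM in glp-1 (-5.50, SE 0.17), and gpd-4 fell by 6.11. Of the other copies, gpd-2 and gpd-3 rose by 1.89 and 2.14, gpd-3 from 131, 126 and 147 FPKM to 652, 563 and 579 FPKM. Each of the 2 pairs is near-identical, so that the split within a pair is uncertain while the split between pairs is not touched by it. In the muscle and neuron scaling gpd-2 was no longer called (0.21). It and the rising copies rpl-11.2, sdha-1 and gyg-1 below were set beside their falling copies after their values were seen.

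The same opposition was found in other copies. The ribosomal protein gene rpl-11.2 went from 453, 442 and 479 FPKM to 999, 964 and 1098 FPKM (1.15, SE 0.08), against the fall of rpl-11.1 given above, though the muscle and neuron scaling turned it to -0.54. The succinate dehydrogenase gene sdha-2 had 108, 99.2 and 101 FPKM against 3.17, 2.71 and 2.72 FPKM (-4.75, SE 0.07), while sdha-1 stood at 61.2 ± 2.82 and 78.8 ± 4.36 FPKM (0.36, SE 0.06, turned to -1.31). The glycogenin gene gyg-2, for the primer of glycogen synthesis, had 650, 622 and 626 FPKM against 5.70, 1.07 and 4.43 FPKM (-7.23, SE 0.36), and gyg-1 rose from a mean of 10.3 to 36.0 FPKM (1.72, SE 0.14), a call lost in the muscle and neuron scaling (0.12, adjusted p = 0.408 by limma). The poly(A)-binding protein genes pab-1 and pab-2 had -0.98 and 1.5, the latter turned to -0.18.

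Cap-binding proteins of the eIF4E family had 3 members lower, ife-3 (-4.23), ife-5 (-3.14) and ife-1 (-2.97), and 1 slightly higher, ife-2 (0.27, SE 0.05, turned to -1.40), while ife-4 was not called (-0.18, adjusted p = 0.237 by limma). All 4 Y-box genes fell, but unequally: cey-2 and cey-3 as above, and cey-1 and cey-4 by 0.60 and 0.56. Importin alpha genes fell in the order ima-2 (-6.81), ima-1 (-3.91) and ima-3 (-1.45). Among actins act-2 fell by 2.76, act-4 rose by 1.59 (-0.10 in the muscle and neuron scaling) and act-5, the actin of gut microvilli, rose from 76.4, 64.7 and 75.5 FPKM to 397, 446 and 536 FPKM (2.65, SE 0.10).

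Tubulins, gap junction and proton pump genes split too. The tubulin genes tba-1, tba-2, tbb-1 and tbb-2 fell by 3.54, 2.88, 2.75 and 1.84, tbb-4 fell by 3.32, and tba-7, tbb-6 and tba-4 rose by 2.73, 2.48 and 2.33. Some tubulin copies are alike enough to share fragments. Of 18 innexin genes 12 rose and 6 fell (median 1.04), but 3 were higher and 11 lower scaled to muscle and neurons (median -0.43). The germ cell innexins inx-14, inx-22 and inx-21 fell by 5.82, 6.27 and 5.18, with inx-22 at 112, 104 and 103 FPKM against 1.00, 0.027 and 0.321 FPKM. The sheath cell innexin inx-8 rose from 94.0, 90.7 and 85.1 FPKM to 263, 285 and 311 FPKM (1.66, SE 0.07, turned to -0.02), and inx-16, inx-15 and inx-17 rose by 2.62, 2.54 and 2.49. Of 20 vacuolar ATPase genes 18 rose (median 0.67), but 2 were higher and 18 lower scaled to muscle and neurons (median -1.02). Highest were the membrane subunit genes vha-5 (2.57) and vha-6 (2.49), the latter of the gut. The 2 that fell were vha-18 (-5.09), at 73.3, 66.0 and 63.9 FPKM against 1.20, 0.73 and 1.13 FPKM, and vha-7 (-2.20).

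**Figure D4:**
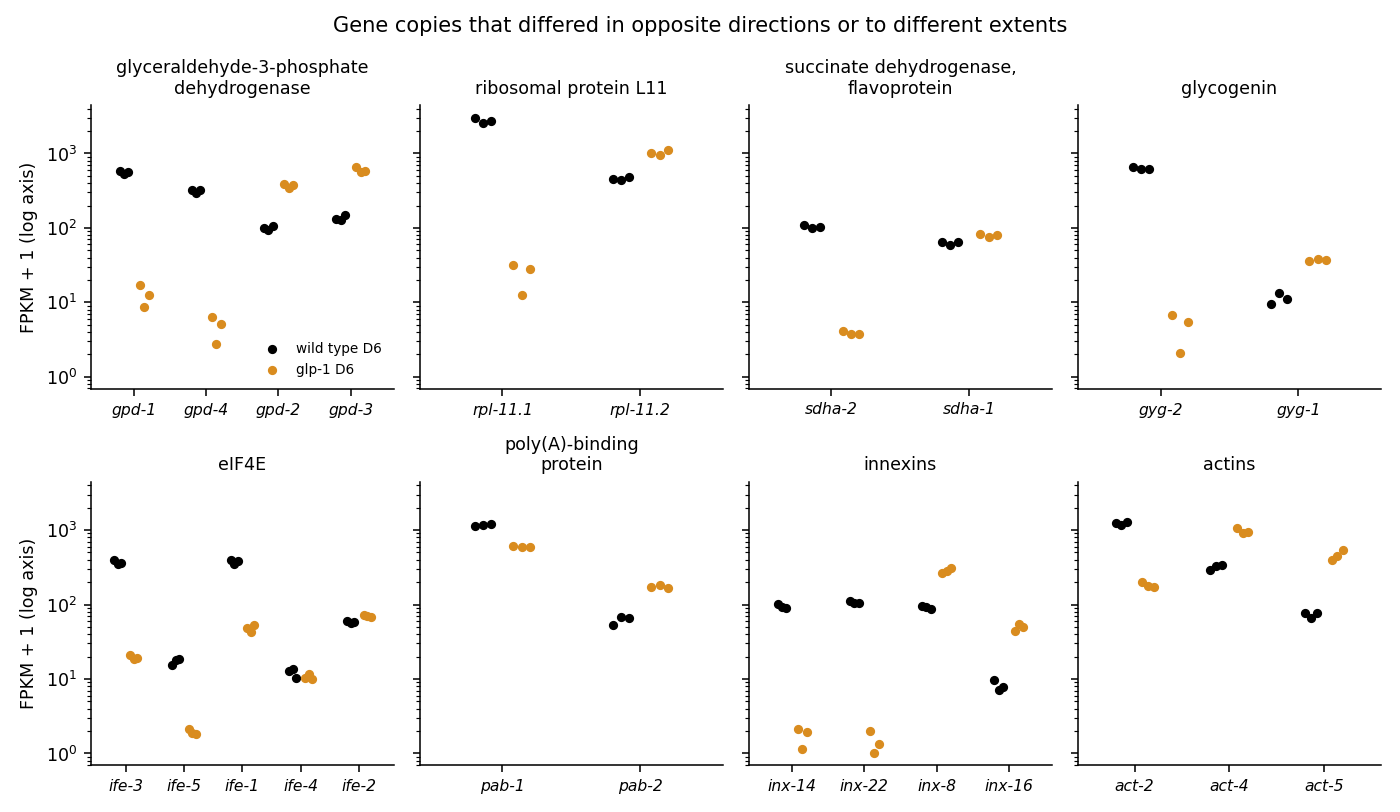
FPKM + 1 (y axis, log) of genes from 8 families in the 3 wild-type (black) and 3 glp-1 (orange) D6 libraries, with 1 point per library. Copies such as gpd-1 and gpd-3, rpl-11.1 and rpl-11.2, and gyg-2 and gyg-1 moved in opposite directions, and the libraries of the 2 genotypes do not overlap for any of the 6.

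Genes of central metabolism moved in both directions. Of 21 glycolysis and gluconeogenesis genes 13 rose and 7 fell (median 0.44, and -1.23 scaled to muscle and neurons). The gluconeogenic enzyme gene pck-1 had 66.2, 63.9 and 87.9 FPKM in the wild type and 833, 762 and 814 FPKM in glp-1 (3.46, SE 0.12). The hexokinase gene hxk-1 fell by 2.28 and the aldolase gene aldo-1 rose by 2.18, while its copy aldo-2, chosen after its value was seen, rose by 0.52 (turned to -1.16). Of 23 genes of the citric acid and glyoxylate cycles 15 fell and 6 rose (median -0.90), and the glyoxylate enzyme gene icl-1 rose most (2.39, SE 0.17). Of 13 trehalose and glycogen genes 9 rose and 4 fell, but 4 were higher and 6 lower scaled to muscle and neurons (median 0.09). The rises included the trehalose synthase genes tps-2 (2.99) and tps-1 (2.85), the former at 9.70, 10.4 and 8.28 FPKM against 84.3, 80 and 80.8 FPKM. The median of this list rose (1.72) while its summed level went from 1733 to 1772 FPKM in the wild type to 894 to 940 FPKM in glp-1, with gyg-2 the most abundant of the genes named here in the wild type.

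Of 20 described one-carbon and phosphatidylcholine synthesis genes 9 rose and 11 fell. The cystathionine lyase gene cth-2 rose by 3.02 and the phosphoethanolamine methyltransferase genes pmt-2 and pmt-1 by 2.62 and 2.07. The falls included thymidylate synthase tyms-1, an enzyme of DNA precursor synthesis (-5.71), and mtrr-1 of the methionine cycle (-2.91). Of 25 genes of endoplasmic reticulum secretion 16 fell and 6 rose (median -0.58).

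Regulators of longevity and insulin signalling had no common direction. Of 16 genes that the long life of germline-less worms is known to involve 8 rose and 6 fell (median 0.13, and -1.54 scaled to muscle and neurons). The lysosomal lipase gene lipl-4 had 0.352, 0.182 and 0.251 FPKM against 10.4, 8.14 and 7.20 FPKM (2.91, SE 0.18), and the receptor genes nhr-80 and daf-12 rose by 2.08 and 1.90, daf-12 no longer called when scaled (0.38). The transcription factor genes hsf-1 and tcer-1 fell by 2.29 and 1.80, and hcf-1, whose product represses DAF-16, fell by 4.16. Of 8 described sterol and dafachronic acid genes, the hormone pathway of DAF-12, 6 rose and none fell, with the oxygenase gene daf-36 (2.02, SE 0.17), though scaled to muscle and neurons 2 were higher and 3 lower (median -0.37).

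Of 15 insulin signalling genes 7 rose and 7 fell (median 0.14), beside 44.4% higher and 45.4% lower among all genes tested. The insulin-like peptide gene daf-28 rose by 2.33. The phosphoinositide kinase gene age-1 had 33.8, 34.9 and 32.8 FPKM against 3.41, 3.94 and 3.35 FPKM (-2.93, SE 0.10). The kinase genes sgk-1 and akt-2 rose by 2.06 and 1.94. Of 16 TGF-beta pathway genes 14 rose and 2 fell, with the ligand gene daf-7 (2.14) and the body size gene lon-1 (2.35) higher and the receptor gene daf-1 lower (-1.60). Scaled to muscle and neurons the medians of the insulin and TGF-beta lists were -1.53 and -0.20.

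Embryonic and larval genes were lower or uneven. Of 16 described transcription factor genes of early embryos 11 fell and 5 rose (median -1.96), with the maternal regulator pie-1 (-5.74), tbx-9 (-4.90) and pal-1, at 137, 131 and 130.3 FPKM against 5.57, 4.59 and 4.80 FPKM. The genes end-1, med-1, hlh-27 and hlh-25 of this list were at 0 in all 6 libraries. The epidermal factor gene elt-3 rose by 2.39. Of 26 described genes of molting and the larval cuticle 13 fell, 3 rose and 10 were not called (median -1.60). The collagen genes dpy-10 and dpy-17 fell by 3.47 and 2.71, and the peroxidase gene mlt-7 rose by 1.75, a call lost in the muscle and neuron scaling (0.24). Of 11 described epidermis markers 6 fell and 4 rose, with the hatching protease gene hch-1 (-4.20) and sym-1 (-3.74) lowest and elt-3 (2.39) highest. Their median was -1.39, and -2.59 scaled to muscle and neurons. Summed over the 14 listed epidermis markers, by contrast, the level was 186 to 229 FPKM in the wild type and 278 to 289 FPKM in glp-1.

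Counts of cuticle collagens depended on which mutant libraries were included. Of 100 described col genes 37 rose, 16 fell and 47 were not called (median -0.39), and scaled to muscle and neurons 17 were higher and 67 lower (median -1.57). Among the rises were col-158 (2.78), col-143 (2.57) and col-101, at 171, 125 and 196 FPKM against 953, 849 and 720 FPKM. Over the 100 genes the median level was 56.4% of the wild-type mean in mutant replicate 1, 17.9% in replicate 2 and 175% in replicate 3. Summed over all 157 listed col genes, by contrast, the level was 2774 to 3686 FPKM in the wild type and 10054 to 12404 FPKM in glp-1. The gene col-147 had 0.0597, 0.0855 and 2.76 FPKM in the mutant libraries against 9.49, 7.01 and 6.44 FPKM. Without mutant replicate 3 the count became 35 higher and 50 lower (median -0.98), and without replicate 2 it became 37 and 13 (median 0.13), so that the direction of the median turned. Epidermis markers, which the cells that make collagen express, had medians of 20.2%, 15.9% and 46.6% of the wild-type mean in mutant replicates 1, 2 and 3. Their summed level, given above, was higher in glp-1, and their part in the collagen values was not tested. The marker list itself holds cuticle collagen genes such as dpy-7 and rol-6, so it does not measure these cells apart from collagen.

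Major sperm protein genes, which are near-identical copies and uncertain one by one, behaved alike. Of 16 described 0 rose and 3 fell (median -0.63), with 18.9%, 8.82% and 142% of the wild-type mean in mutant replicates 1, 2 and 3. The mutant mean was under 1 FPKM in 8 of the 16. Without replicate 3 of the mutant 14 fell. The molting list, at 25.4%, 4.87% and 72.6%, went from 13 to 18 falls. Summed over 31 listed major sperm protein genes the level was 37.4, 27.3 and 62.3 FPKM in the wild type and 10.4, 10.2 and 57.2 FPKM in glp-1, so replicate 3 was also the highest of the wild type. The label of replicate 3 reads 22 °C in both genotypes, and its part in these values was not tested.

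The germline genes ranked the mutant libraries in another order. For germ cell markers replicate 1 was highest and replicate 2 lowest, and the same order held in the medians of P granule genes (1.37%, 0.278% and 0.950% of the wild-type mean), meiotic structure genes (1.28%, 0.196% and 0.930%) and DNA replication genes (2.04%, 0.919% and 1.65%). Nucleoporin genes did not share it (7.86%, 7.80% and 8.51%). Of the 10 called genes with the widest range over the mutant libraries 6 were from the list of largest falls, namely sip-1, cey-2, cav-1, R09B3.2, clec-87 and cpg-2, and 2 were collagen genes, col-3, at 8.85, 3.39 and 34.9 FPKM, and col-38, and 1 was C02E7.7. The calls of col-38 and C02E7.7 were lost without most single libraries, at -0.57 to -1.46 for col-38 and -0.77 to -1.47 for C02E7.7. The remaining gene was H04D03.3, at 0 FPKM in mutant replicates 1 and 2 and 7.81 FPKM in replicate 3.

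**Figure D5:**
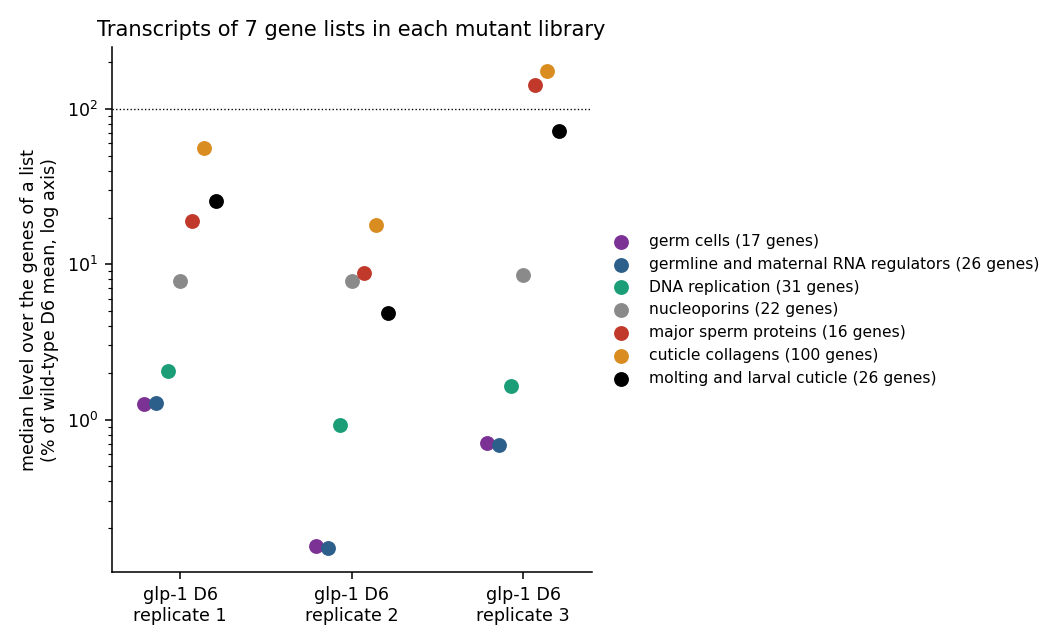
Median level of the described genes of 7 lists in each glp-1 D6 library, as % of the wild-type D6 mean (y axis, log; dotted line at 100%). Germ cell genes ran from 0.153% in replicate 2 to 1.26% in replicate 1, nucleoporin genes stayed near 8%, and collagen and sperm protein genes were above the dotted line in replicate 3.

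Spread within the wild type touched other genes. The widest range belonged to nspc-6, at 42.5, 26.9 and 0 FPKM in the wild type and 89.9, 147 and 164 FPKM in glp-1 (3.61, SE 1.37, adjusted p = 0.0299 by limma), a call lost without wild-type replicate 3 (1.90), mutant replicate 2 (3.52) or mutant replicate 3 (3.44). VB0393L.2 had 29.7, 18.2 and 1.18 FPKM in the wild type and fell (-3.17, SE 0.96), and Y19D10A.4 had 0.36, 9.08 and 6.99 FPKM and rose (1.54, SE 0.60), a call lost without mutant replicate 1 (1.56) or 3 (1.45). The calls of nspc-6 and Y19D10A.4 were also lost in the muscle and neuron scaling (2.31 and 0.24). Fits of only the 6 D6 libraries and fits with a replicate block lost both calls too. The remaining 7, fbxc-1, kreg-1, F19G12.9, msp-19, F40H3.2, ZK816.1 and F13E9.12, lay under 6 FPKM in each wild-type library. Among them fbxc-1, F19G12.9, F40H3.2, ZK816.1 and F13E9.12 rose but were no longer called in the muscle and neuron scaling.

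Some genes were listed in a single genotype. Below 0.1 FPKM in every mutant library were 265 genes, and below 0.1 FPKM in every wild-type library were 13. The highest of the first kind were F15A4.10, at 61.8, 62.2 and 71.3 FPKM in the wild type, the meiotic gene lab-1, which protects cohesion between sister chromatids, at 57.5, 70.5 and 64.6 FPKM, and the histone gene his-60, at 60.1, 66.4 and 52 FPKM, each at 0 in all 3 mutant libraries. F52C6.2 and T04D3.8 were also at 0 there, and cTel55X.1 had 0.0691 FPKM in 1 of them. The highest of the second kind were lower in level: M04C3.1, at 19.9, 20.2 and 20.9 FPKM in glp-1, C25F9.14, at 6.33, 6.87 and 4.80 FPKM, the chemoreceptor genes srd-3 and srw-69, tyr-3 and Y52B11B.1. No fold is given for genes at 0.

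Histone genes were mixed. Of 60 described 41 fell, 13 rose and 6 were not called (median -1.35). The mutant mean was under 1 FPKM in 35 of the 60, and the wild-type mean in 3. The variant gene his-74 fell by 7.13 and his-38 rose from 4.16, 3.52 and 3.52 FPKM to 37.4, 39.3 and 38.9 FPKM (3.06, SE 0.16). Most histone genes are near-identical copies whose transcripts lack a poly(A) tail, and are uncertain one by one. Of 16 described hedgehog-related genes 12 rose and 1 fell, with grl-4 (3.42) and wrt-10 (-3.06), and the median of 1.39 turned to -0.04 scaled to muscle and neurons. Of 20 patched-related genes 15 rose and 3 fell, with ptr-14 (3.50) above and ptr-2 at 132, 129 and 127 FPKM against 2.57, 1.15 and 2.27 FPKM. Saposin-like genes rose in 17 of 19, with spp-9 (3.90).

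A few abundant genes hardly differed. For 79 of the 12598 genes the 95% interval of the log2 difference lay within 0.25 of 0. The most abundant was pdi-3, for a protein disulfide isomerase that folds collagen, with 597, 622 and 597 FPKM in the wild type and 583, 660 and 606 FPKM in glp-1 (0.02, interval -0.11 to 0.15). The next were gdh-1 (0.12, for glutamate dehydrogenase), B0513.4 (-0.09), cmd-1 (-0.12, for calmodulin), arf-1.2 (-0.14), sca-1 (-0.03, for the calcium pump of muscle), Y54G2A.18 (0.11), vgln-1 (0.03), gdi-1 (-0.11) and vps-32.1 (-0.06). Equal shares of a pool are meant here: scaled to muscle and neurons the same genes lay well below 0, with pdi-3 at -1.67.

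The difference between the genotypes was not the same at both ages. The interaction, the difference at D6 minus that at D1, was called for 47.5% of all genes tested and for 5852 of the genes described (46.5%). The 2 comparisons share no library. Among genes with at least 1 FPKM on average in each of the 4 groups, R09E12.9 moved far toward the mutant, from means of 4.29 (wild type) and 2.27 FPKM (glp-1) at D1 to 3.74 and 79.3 FPKM at D6 (interaction 4.81, SE 0.25). The lysozyme gene lys-10 had 3.72 and 1.03 FPKM at D1 and 13.1 and 76.7 FPKM at D6 (3.68, SE 0.28), and ugt-25 had 4.53 and 13.2 FPKM at D1 (3.63, SE 0.15). Age is joined to the cooler temperature in both genotypes, and their parts cannot be told apart.

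Other genes were far higher in the young mutant than in its control and differed less at D6. C32H11.4 stood at 3.94 (wild type) and 191 FPKM (glp-1) at D1 and at 8.33 and 16.5 FPKM at D6 (interaction -4.43, SE 0.40). K10C2.8 had 2.31 and 49.2 FPKM at D1 and 7.21 and 4.86 FPKM at D6, and the collagen gene col-139 had 37.4 and 525 FPKM at D1 and 7.07 and 4.47 FPKM at D6. The glutathione S-transferase gene gst-24 had 4.24 and 59.9 FPKM at D1 and 13.4 and 12.8 FPKM at D6, where its 3 values in either genotype overlapped (-3.64, SE 0.27).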

How the data were processed

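The deposited files give 1 FPKM value per gene and library, which the authors computed, per the file headers. Tools named in the submitters' processing notes are HISAT2 2.0.4 and DESeq2 1.6.3, with WBcel235 as the build. The sources used here do not give the program behind FPKM, the annotation, the strand setting or filters. FPKM rest on each library's own total, so they measure shares. Depth was estimated from steps between low values, only roughly, and no counting intervals were computed. Of 20257 names 18142 matched a symbol and 1589 a sequence name of the Ensembl WBcel235 annotation, which gave coordinates. 195 matched a RefSeq symbol, 331 matched nothing, and 11 were spreadsheet dates.

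The 4 group means were fitted to log2(FPKM + 1) over all 12 libraries with limma 3.58.1 in R 4.3.3 (trend, robust moderation, 8 residual degrees of freedom) for genes at 1 FPKM or more in 3 libraries or more, tested on simulated data first. P-values are two-sided with Benjamini-Hochberg adjustment. Named genes are the 15 largest rises and falls (mean of at least 1 FPKM in both groups), the 10 largest gains and losses of FPKM, the 6 highest listed in a single genotype each way, the 10 most abundant with an interval within 0.25 of 0, the 10 widest ranges in each genotype, up to 4 leading genes a list each way, all members of copy families, and the 5 largest interactions each way. The genes described and the 77 lists were chosen with earlier results of these data known. Alternatives were other pseudocounts, filters, scalings, moderation, a replicate block and left-out libraries. The genome sequence was not used here.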

Additional observations from a re-analysis of the deposited data

Results flagged for a closer look

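For 10 genes the genotype difference at D6 departed most from that at D1 by limma's interaction term, among genes whose mean reached 1 FPKM in all 4 groups. The values are log2 differences at D6 minus those at D1. Below 0 were C32H11.4 (-4.43), K10C2.8 (-4.40), col-139 (-4.38), col-12 (-4.29) and gst-24 (-3.64). Above 0 were msp-31 (4.97), R09E12.9 (4.81), C50F7.5 (3.79), lys-10 (3.68) and ugt-25 (3.63). Of these, msp-31, one of the near-identical sperm protein genes, had wild-type means of 50.9 FPKM at D1 and 2.27 FPKM at D6, against mutant means of 1.71 and 4.13 FPKM. The collagen gene col-12 had 0.556, 0.387 and 7.62 FPKM in mutant replicates 1, 2 and 3 at D6 and the largest error (SE 0.86). C50F7.5 spread widely in wild type at D1 (80 ± 56.3 FPKM, SD, n = 3). All 10 kept their direction and their call in every alternative tried. Age and culture temperature cannot be told apart in them.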

How the results depend on the processing

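Over the 13614 genes tested the balance of calls moved most under the scaling to 33 muscle and neuron genes, where 2837 genes were higher in place of 6045 and 8052 lower in place of 6176 (10889 called in place of 12221). That scaling assumes that these genes keep their level, so it moves every gene by the same factor in a library. Leaving out each D6 library in turn gave 12052 to 12212 called, 5939 to 6017 higher, 6088 to 6242 lower, 9685 to 9828 at least 2-fold and 5990 to 6247 with an interaction. The 6 D6 libraries alone gave 12168 calls, no filter 13553, a filter of 5 FPKM 9907, and mutant replicate 2 as the only mutant library at D6 11842, an alternative chosen after seeing the data that assumes the lone library to vary like the other groups. Same-numbered libraries of the 2 genotypes showed no common deviation (r over genes of -0.079, 0.07 and -0.021 for replicates 1, 2 and 3 at D6). Unlike-numbered libraries had r of -0.078 to 0.095. Deviations from means of 3 libraries cannot tell whether same-numbered libraries shared a culture or batch. A replicate block gave 12166 calls, and 5976 for the interaction. The chromosome shares kept their direction over the genes described alone and without each D6 library.

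Scaled to muscle and neurons, the value turned below 0 for C32H11.4 (-0.63), Y54G2A.18 (-1.57), act-4 (-0.10), aldo-2 (-1.16), gdh-1 (-1.57), lgc-38 (-0.04), ife-2 (-1.40), inx-8 (-0.02), ncl-1 (-1.49), pab-2 (-0.18), pdi-3 (-1.67), perm-4 (-0.08), rpl-11.2 (-0.54), sdha-1 (-1.31) and vgln-1 (-1.66). Median-of-ratios scaling turned B0513.4 (0.28), arf-1.2 (0.23), cmd-1 (0.24), gdi-1 (0.26), sca-1 (0.34), ugt-64 (0.15) and vps-32.1 (0.30) above 0, and equal sums turned cmd-1 (0.02) and gdi-1 (0.03). Depth was only estimated, so values under 1 FPKM have no known counting error.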
